A study of Mus musculus with 8 samples.

Results

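The genes described here act in repair of DNA double-strand breaks and interstrand crosslinks, and include the mismatch repair genes Msh6 and Pms2. They are 39 named genes of the 43346 in the deposited raw count table, each found under 1 gene ID. The list was set by gene name, with earlier results of these data known. LLC1 is the Lewis lung carcinoma line, derived from a spontaneous C57BL tumour. MLE12 descends from epithelial cells of a transgenic mouse's lung tumour, in which the SV40 large T antigen was driven by a surfactant protein C promoter, and large T binds the p53 and RB proteins. Both lines were bought from ATCC and grown without added reagents to a subconfluent density, so each group is 1 established line standing for its cell type. Messenger RNA was sequenced in 4 libraries of each line. The comparison sets the repair transcripts of the carcinoma line against those of the epithelial line, pathway by pathway.

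A double-strand break can be mended by several routes. Homologous recombination resects the ends and copies the sister chromatid, with BRCA1, PALB2, BRCA2 and the BCDX2 and CX3 complexes taking part, so it works mainly in S and G2 phase. Non-homologous end joining holds the ends with Ku and DNA-PKcs and seals them with the XRCC4-LIG4 ligase in any phase. Polymerase theta joins resected ends by short homologies. The Fanconi anemia proteins detect crosslinks at stalled forks, and their core complex attaches ubiquitin to the FANCD2-FANCI pair. The kinases ATM and ATR signal breaks and stalled forks.

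The total count of a library was 46840648 to 55285307 in LLC1 and 48643667 to 76722481 in MLE12. Member counts in a library ran from 166 (Rad51b) to 17390 (Parp1), so all 39 members entered the test. Counting error and the spread between libraries both enter the errors given below. The lung epithelial factor Nkx2-1 stood at 0.664 ± 0.109 CPM (LLC1, SD, n = 4) and 147 ± 6.39 CPM (MLE12), while the epithelial keratin Krt18 was at 293 ± 9.03 CPM (LLC1, SD, n = 4) and 0.930 ± 0.315 CPM (MLE12). Of 12 lung epithelial markers 9 were tested, 7 of them higher in MLE12 and 2 in LLC1, and Sftpd had 0 counts in every library. Leukocyte markers Ptprc and Emr1 had 2 and 0 counts over all libraries, and the summed level of 8 leukocyte markers was 18.1 to 20.4 CPM in LLC1 and 13.8 to 16.5 CPM in MLE12, carried by Cd68 and Csf1r. Summed levels of 10 fibroblast and mesenchymal markers were 5322 to 5729 CPM in LLC1 and 1257 to 1337 CPM in MLE12, carried by Vim and Col3a1. Of the 9 of these tested, 5 were higher in LLC1 and 4 (Dcn, Col1a1, Col1a2 and Pdgfrb) in MLE12, with Dcn at 2.34 ± 0.117 CPM (LLC1, SD, n = 4) and 319 ± 15.8 CPM (MLE12). The summed level of 7 endothelial markers was 0.609 to 1.16 CPM in LLC1 and 3.44 to 4.09 CPM in MLE12, with Emcn at 0. The MLE12 excess was carried by Tek, at 0.0563 ± 0.0890 CPM (LLC1, SD, n = 4) and 2.95 ± 0.284 CPM (MLE12), while Pecam1 and Vwf were not called. The part of these markers in the repair gene differences was not tested. Fewer cells of a kind and less RNA per cell cannot be told apart in such bulk samples.

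Levels below are in CPM, the usual depth-adjusted count, computed here on TMM-scaled library sizes. Each log2 fold change is given ± SE as LLC1 over MLE12, and a negative value means a higher level in MLE12. Calls are edgeR adjusted p-values under 0.05. A second test, glmTreat, asks whether a difference exceeds 2-fold.

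Most repair genes differed between the lines, and few by more than 2-fold. LLC1 had the higher level of 13 members and MLE12 of 23, while 3 (Parp1, Fancd2 and Msh6) were not called. The called share, 36 of 39, is to be read against 81.6% of all 18546 genes tested (40.7% higher in LLC1 and 40.9% higher in MLE12). CPM values of the lines did not overlap for 36 members, against a background of 76.3% of genes. Over 2-fold differences were found for 6 members, or 15.4%, all higher in MLE12: Fancg, Lig4, Nbn, Rad51c, Rad54b and Polq. Among all genes, 33.7% passed that test (16.7% higher in LLC1 and 16.9% higher in MLE12), and among the 11231 genes within the members' range of mean expression, 27.6% did. The median log2 fold change was -0.20 for the members, 0.02 for all genes tested and -0.08 for the genes within that range. The median size of the change was 0.56 for the members, 0.74 for all genes and 0.59 for the genes within that range. Member changes reached from -1.79 ± 0.06 for Fancg to 0.86 ± 0.06 for Fance.

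**Figure D1:**
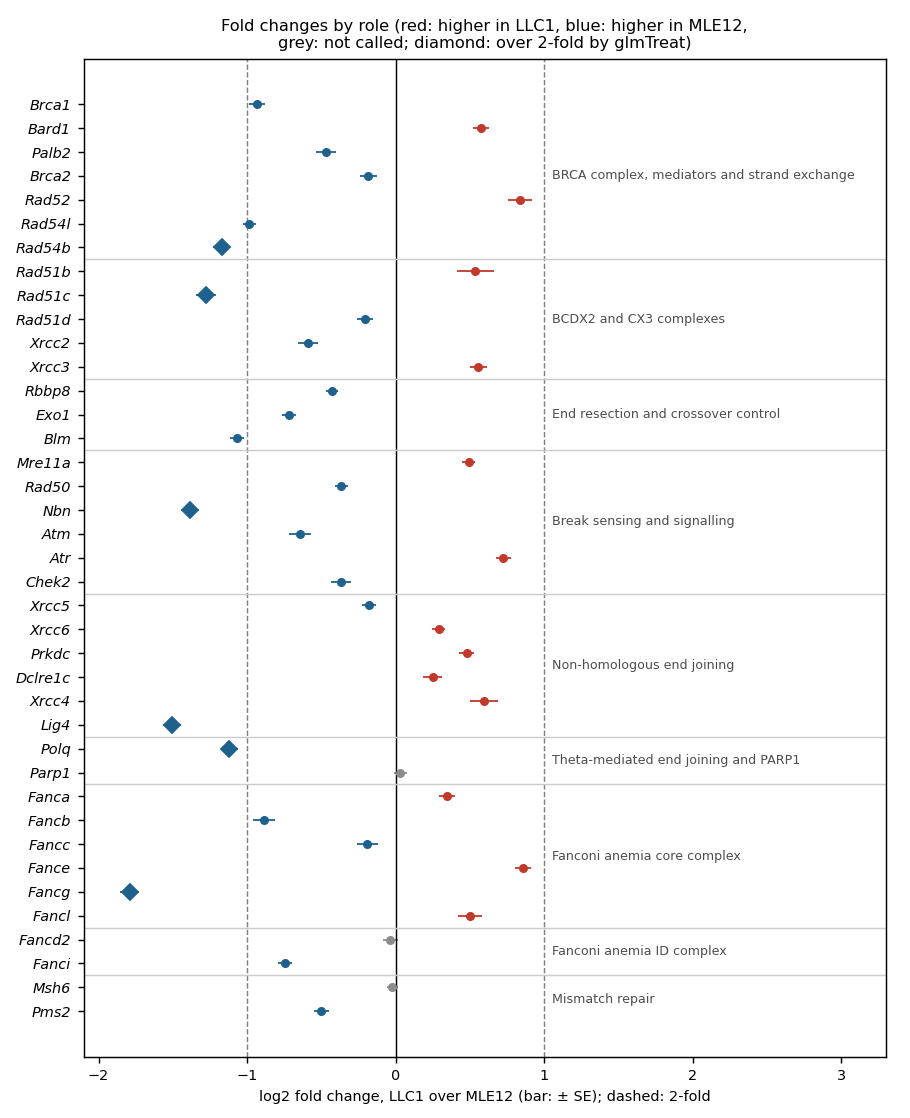
Log2 fold change of each of the 39 repair genes (x axis, LLC1 over MLE12, bars ± SE, dashed lines at 2-fold), grouped by role. Red points are higher in LLC1, blue points higher in MLE12 and grey points not called, and the 6 diamonds, all on the MLE12 side, passed the 2-fold test.

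The genes over 2-fold were spread across the roles, with 1 each among strand exchange, the BCDX2 and CX3 complexes, break sensing, end joining by ligase IV, theta-mediated joining and the Fanconi anemia core complex. Blm lay next to them without passing (glmTreat adjusted p = 0.0723). Polq passed narrowly (glmTreat adjusted p = 0.0222) and no longer did so without LLC1 replicate 1 (0.0753), LLC1 replicate 3 (0.0735) or MLE12 replicate 2 (0.0701), while Blm passed without MLE12 replicate 1 (0.019).

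**Figure D2:**
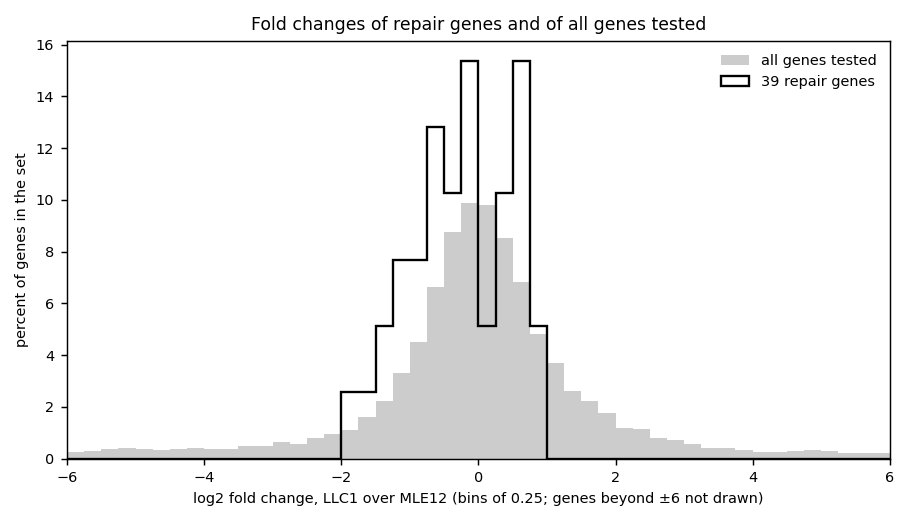
Percent of genes (y axis) per 0.25 step of log2 fold change (x axis, LLC1 over MLE12) for all genes tested (grey) and for the 39 repair genes (black line). The repair genes lie between -1.79 and 0.86, while the grey distribution runs on past both ends.

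Promoter sequences were taken from RefSeq (GRCm38.p6, 250 bases before to 50 after a transcription start), where 30 of the 39 members matched by symbol, with 34 starts. They were searched on both strands for letters of 3 kinds of cell cycle promoter element. The E2F-type letters TTTCCCGC, TTTGGCGC, TTTCGCGC or TTTGCCGC stood in 7 of 30 members (23.3%), against 2.61% of 27025 genes in the table and 3.29% of 17491 protein-coding genes. CCAAT stood in 18 of 30 (60%, against 41.1% of genes), and TTTGAA or TTTAAA, the letters of the CHR element, in 7 of 30 (23.3%, against 30.6% of genes). A match is a description of letters and not a bound site. The 7 members with E2F-type letters were Bard1 and Xrcc6, higher in LLC1, Brca2, Rad51c, Chek2 and Fancg, higher in MLE12, and Msh6, not called. Their median log2 fold change was -0.18, the same to 2 decimals as for the 23 members without. The promoters printed here were chosen to show these letters beside genes that moved in opposite directions, 5′ to 3′ on the gene's strand, with matches of all 3 kinds in capitals. Fancg and Rad51c were over 2-fold higher in MLE12, Bard1 and Xrcc6 were higher in LLC1, and Brca1 carries CCAAT and none of the other letters. Rad51c has a second listed start, whose window also holds E2F-type letters, and the Xrcc6 window lies inside the deposited gene span. The listed starts of Fancg and Bard1 lie inside their deposited gene spans too, so part of the sequence before each start belongs to the span.
Fancg (chr4:43010252-43010551, minus strand): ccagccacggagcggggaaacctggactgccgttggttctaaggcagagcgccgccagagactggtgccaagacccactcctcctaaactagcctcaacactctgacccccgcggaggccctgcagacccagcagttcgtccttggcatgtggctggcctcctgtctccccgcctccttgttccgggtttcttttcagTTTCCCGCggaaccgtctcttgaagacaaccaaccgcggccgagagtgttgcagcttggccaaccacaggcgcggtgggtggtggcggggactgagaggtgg
Rad51c (chr11:87404905-87405204, minus strand): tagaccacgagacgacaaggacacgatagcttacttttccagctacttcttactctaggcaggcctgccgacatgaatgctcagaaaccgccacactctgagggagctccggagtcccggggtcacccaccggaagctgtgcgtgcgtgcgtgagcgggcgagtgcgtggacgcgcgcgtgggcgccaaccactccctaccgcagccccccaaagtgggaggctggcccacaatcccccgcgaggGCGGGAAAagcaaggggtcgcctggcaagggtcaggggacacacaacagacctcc
Bard1 (chr1:71102923-71103222, minus strand): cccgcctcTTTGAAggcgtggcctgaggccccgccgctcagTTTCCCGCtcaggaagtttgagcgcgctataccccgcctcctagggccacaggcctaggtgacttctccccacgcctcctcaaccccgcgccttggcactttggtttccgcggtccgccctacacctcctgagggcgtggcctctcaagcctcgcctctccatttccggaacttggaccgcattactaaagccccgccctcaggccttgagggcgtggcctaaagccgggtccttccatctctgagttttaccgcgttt
Xrcc6 (chr15:82016119-82016418, plus strand): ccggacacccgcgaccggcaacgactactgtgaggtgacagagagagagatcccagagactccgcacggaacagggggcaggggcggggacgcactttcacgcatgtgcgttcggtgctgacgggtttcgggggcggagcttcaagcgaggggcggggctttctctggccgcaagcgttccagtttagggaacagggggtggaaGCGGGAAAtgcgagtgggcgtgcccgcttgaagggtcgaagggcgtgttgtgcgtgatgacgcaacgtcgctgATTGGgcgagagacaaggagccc
Brca1 (chr11:101551906-101552205, minus strand): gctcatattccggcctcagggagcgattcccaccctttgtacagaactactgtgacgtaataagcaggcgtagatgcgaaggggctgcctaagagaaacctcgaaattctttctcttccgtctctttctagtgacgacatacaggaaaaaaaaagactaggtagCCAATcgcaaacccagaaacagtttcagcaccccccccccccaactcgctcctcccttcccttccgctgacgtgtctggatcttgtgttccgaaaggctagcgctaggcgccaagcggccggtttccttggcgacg

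Compared per length (RPKM, the CPM divided by the deposited gene length in kilobases), Parp1 was the most abundant member in both lines, with 41.0 ± 1.86 RPKM (SD, n = 4) in LLC1 and 40.1 ± 1.61 RPKM in MLE12. Msh6 followed with 34.7 ± 0.420 RPKM (SD, n = 4) in LLC1 and 35.2 ± 0.248 RPKM in MLE12, and Fanca was the third with 31.9 ± 2.29 RPKM (SD, n = 4) in LLC1 and 25.1 ± 1.65 RPKM in MLE12. The CPM of Parp1 and of Msh6 overlapped between the lines. The lowest member in both lines was Fancc, with 1.32 ± 0.0350 RPKM (SD, n = 4) in LLC1 and 1.502 ± 0.0649 RPKM in MLE12. These values depend on the gene model behind the deposited length, which for Atr is 23492 bases. The largest moves in rank among the 39 were Fancg, from rank 35 in LLC1 to 15 in MLE12, Lig4, from 36 to 21, and Fancl, from 14 to 29. The spread between libraries was small, with a median coefficient of variation of 5.76% in LLC1 and 4.32% in MLE12. Rad51b, the member with fewest counts, had the widest (13.0% and 12.4%), and Msh6 the narrowest (1.21% and 0.706%).

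**Figure D3:**
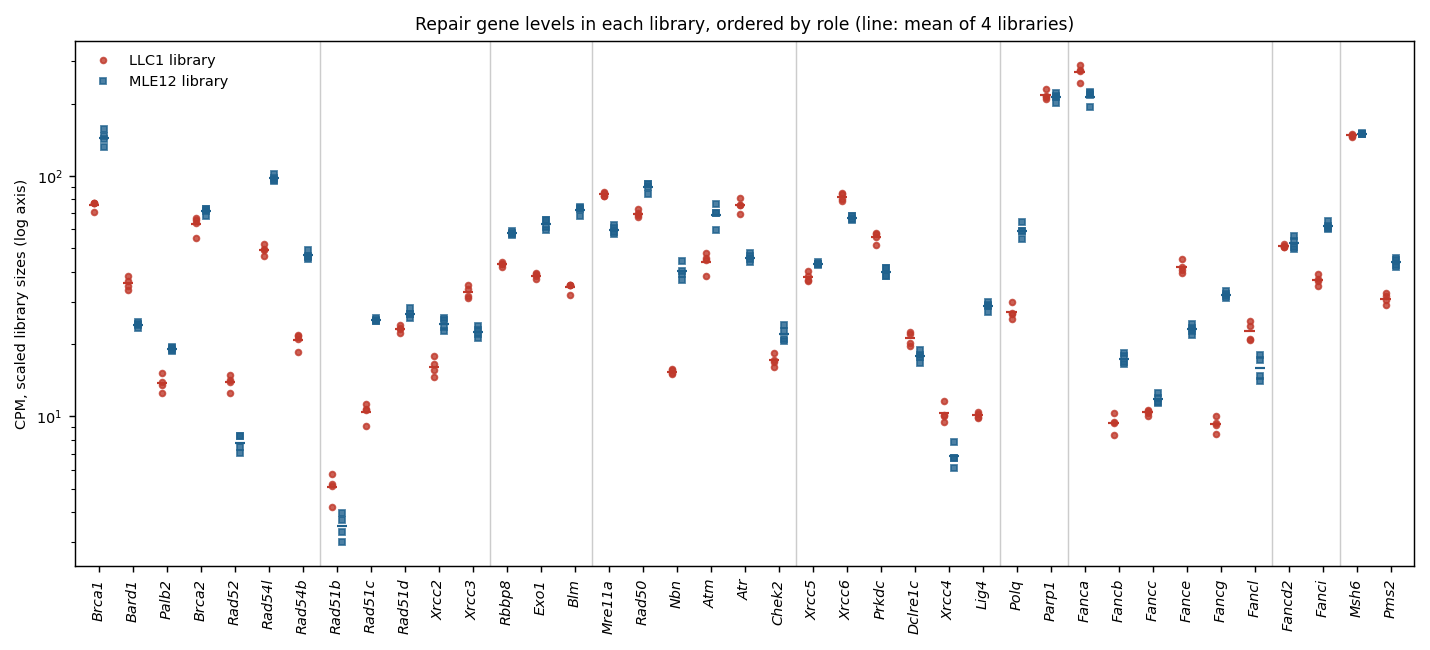
CPM of each repair gene (log y axis) in the 4 LLC1 libraries (red circles) and the 4 MLE12 libraries (blue squares), with the mean as a line, ordered by role. Levels run from 2.99 CPM (Rad51b) to 291 CPM (Fanca), and the lines overlap for Parp1, Fancd2 and Msh6.

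The counts by role in this and the following paragraphs stand against 40.7% of all genes higher in LLC1 and 40.9% higher in MLE12. Genes of the BRCA complex and strand exchange were mostly higher in MLE12, with 5 of 7 higher there and 2 higher in LLC1. Their median log2 fold change was -0.47, with summed levels of 261 to 283 CPM in LLC1 and 397 to 428 CPM in MLE12. Brca1, which starts recombination with its partner BARD1 as a ubiquitin ligase (ENSMUSG00000017146, chr11:101488764-101551955, mm10), stood at 71.0, 76.9, 77.4 and 77.0 CPM in LLC1 and 142, 157, 147 and 132 CPM in MLE12. Every MLE12 library lay above every LLC1 library, and the log2 fold change was -0.93 ± 0.05 (edgeR adjusted p = 2.6e-12). Bard1 went the other way, at 36.6, 38.5, 34.7 and 33.6 CPM in LLC1 and 23.2, 24.3, 24.0 and 24.7 CPM in MLE12 (0.58 ± 0.05, edgeR adjusted p = 1.0e-08). Brca2, a mediator of strand exchange (ENSMUSG00000041147, chr5:150522630-150569746), stood at 65.8, 66.9, 55.1 and 63.7 CPM in LLC1 and 71.2, 73.0, 73.2 and 68.1 CPM in MLE12. Its groups lay apart by a small step (-0.18 ± 0.06, edgeR adjusted p = 0.00496), and Palb2, which links BRCA1 to BRCA2, had a log2 fold change of -0.47 ± 0.07. Both RAD54 translocases, motor proteins of strand exchange, were higher in MLE12. Rad54b (ENSMUSG00000078773, chr4:11558922-11615805) was at 21.9, 21.6, 18.5 and 21.0 CPM in LLC1 and 46.4, 46.2, 45.2 and 49.4 CPM in MLE12, with no overlap (-1.17 ± 0.06, edgeR adjusted p = 4.9e-13, glmTreat adjusted p = 0.00294). Its span holds the gene Fsbp on the same strand, at 9.45 CPM (LLC1) and 16.3 CPM (MLE12), so reads of shared sequence cannot be told apart. Rad54l stood just under 2-fold (-0.98 ± 0.05). Rad52, which anneals single strands, was the member of this group most in favour of LLC1, at 14.2, 13.9, 12.5 and 14.8 CPM in LLC1 and 7.43, 7.04, 8.32 and 8.30 CPM in MLE12 (0.84 ± 0.08, edgeR adjusted p = 1.7e-08).

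The 5 genes of the BCDX2 and CX3 complexes, which act in homologous recombination, were divided, with 2 higher in LLC1 and 3 higher in MLE12 (median -0.20). Rad51c, the subunit common to both complexes (ENSMUSG00000007646, chr11:87376645-87404954), was at 11.2, 10.6, 10.7 and 9.10 CPM in LLC1 and 24.8, 24.98, 25.7 and 25.1 CPM in MLE12. Its lines were well apart (-1.28 ± 0.07, edgeR adjusted p = 1.5e-12, glmTreat adjusted p = 2.4e-04), and its promoter printed above holds E2F-type letters next to the start. Xrcc2 (-0.59 ± 0.07) and Rad51d (-0.20 ± 0.05) were also higher in MLE12. Rad51b (0.54 ± 0.13) and Xrcc3 (0.56 ± 0.06) were higher in LLC1. Rad51b was the lowest member in CPM, at 5.25, 5.78, 5.15 and 4.19 CPM in LLC1 and 3.71, 3.98, 2.99 and 3.32 CPM in MLE12, and its lowest LLC1 library came close to its highest MLE12 library. The Xrcc3 span overlaps the opposite-strand gene Klc1, at 109 CPM (LLC1) and 121 CPM (MLE12).

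The 3 genes listed under resection and crossover control were all called higher in MLE12, against 40.9% of all genes. Their median log2 fold change was -0.72. Blm, the helicase that dissolves double Holliday junctions and aids long-range resection, stood at 35.3, 35.1, 32.0 and 35.2 CPM in LLC1 and 68.1, 73.0, 74.3 and 73.6 CPM in MLE12 (-1.07 ± 0.05, edgeR adjusted p = 1.1e-13). Exo1, the exonuclease of long-range resection, had a change of -0.72 ± 0.05, and Rbbp8, encoding CtIP, which starts resection with MRE11, a change of -0.43 ± 0.04. The summed level of the 3 genes was 114 to 117 CPM in LLC1 and 187 to 199 CPM in MLE12, with no overlap. Mre11a, counted under break sensing, went the other way (0.49 ± 0.04).

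Break sensing and signalling genes included 2 higher in LLC1 and 4 higher in MLE12 (median -0.37). The MRE11-RAD50-NBN complex, which binds broken ends and activates ATM, was split among its own subunits. Nbn, which recruits ATM (ENSMUSG00000028224, chr4:15957925-15992589), was at 15, 15.8, 15.6 and 15.1 CPM in LLC1 and 37.0, 39.2, 40.1 and 44.1 CPM in MLE12, the third largest change of all members (-1.38 ± 0.06, edgeR adjusted p = 6.0e-14, glmTreat adjusted p = 1.7e-06). The nuclease gene Mre11a stood at 85.5, 82.9, 84.9 and 82.6 CPM in LLC1 and 58.4, 60.6, 62.3 and 57.5 CPM in MLE12, higher in every LLC1 library (0.49 ± 0.04, edgeR adjusted p = 2.6e-09). Rad50, the ATPase subunit, was modestly higher in MLE12 (-0.37 ± 0.04). The 2 apical kinases also went in opposite directions. Atm, the break kinase (ENSMUSG00000034218, chr9:53439149-53536740), was at 44.9, 47.6, 38.4 and 45.4 CPM in LLC1 and 70, 76.4, 70.04 and 59.4 CPM in MLE12, without overlap (-0.65 ± 0.07, edgeR adjusted p = 7.1e-07). Atr, the kinase of stalled forks, was at 75.6, 75.9, 69.8 and 81.3 CPM in LLC1 and 44.0, 47.7, 46.3 and 45.2 CPM in MLE12, also without overlap and in favour of LLC1 (0.72 ± 0.05, edgeR adjusted p = 8.1e-11). The Atr span overlaps Gm16794 on the opposite strand, at 11.5 CPM (LLC1) and 7.15 CPM (MLE12). Chek2, the checkpoint kinase downstream of ATM, was higher in MLE12 (-0.37 ± 0.07).

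Non-homologous end joining was the role with most members higher in LLC1, 4 of 6, with a median log2 fold change of 0.27. Its summed level was 214 to 223 CPM in LLC1 and 197 to 208 CPM in MLE12. Prkdc, encoding the DNA-PK catalytic subunit (ENSMUSG00000022672, chr16:15637866-15842235), stood at 57.8, 55.7, 51.4 and 57.3 CPM in LLC1 and 38.4, 41.5, 41.4 and 38.2 CPM in MLE12. The LLC1 libraries were all above those of MLE12 (0.48 ± 0.05, edgeR adjusted p = 5.7e-08). Xrcc6, which encodes Ku70 (ENSMUSG00000022471, chr15:81987835-82040085), was at 84.3, 80.0, 84.9 and 78.5 CPM in LLC1 and 65.6, 68.4, 67.9 and 66.1 CPM in MLE12 (0.29 ± 0.04, edgeR adjusted p = 4.7e-06). Its deposited span overlaps the opposite-strand gene Desi1 over 41340 bases, with Desi1 at 75.3 CPM (LLC1) and 49.9 CPM (MLE12). Xrcc5, which encodes Ku80 (ENSMUSG00000026187, chr1:72307421-72394952), was at 40.3, 38.3, 36.7 and 37.0 CPM in LLC1 and 42.4, 43.1, 43.7 and 43.0 CPM in MLE12, slightly higher in MLE12 (-0.18 ± 0.05, edgeR adjusted p = 0.00183). Dclre1c, encoding the end-trimming nuclease Artemis, had a change of 0.25 ± 0.06, and with library totals in place of scaling factors it was no longer called (edgeR adjusted p = 0.0656). The Dclre1c span overlaps the opposite-strand gene Suv39h2 over 8316 bases, with Suv39h2 at 17.4 CPM (LLC1) and 21.1 CPM (MLE12). The final ligation step held the widest contrast. Lig4, the ligase (ENSMUSG00000049717, chr8:9970020-9977686), was at 9.87, 10.4, 10.3 and 9.93 CPM in LLC1 and 27.1, 29.9, 29.0 and 28.9 CPM in MLE12, the second largest change of all members (-1.51 ± 0.06, edgeR adjusted p = 1.6e-14, glmTreat adjusted p = 4.1e-08). Its scaffold Xrcc4 was at 11.6, 10.01, 10.1 and 9.46 CPM in LLC1 and 6.11, 6.70, 6.69 and 7.86 CPM in MLE12, in the opposite direction (0.59 ± 0.09, edgeR adjusted p = 1.1e-05). The Xrcc4 span overlaps Gm4117 on the other strand over 113140 bases, and that gene was also higher in LLC1, at 24.9 CPM against 12.0 CPM in MLE12, and whether its reads entered the Xrcc4 count was not tested.

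Polq, the polymerase of theta-mediated end joining (ENSMUSG00000034206, chr16:37011786-37095417), was at 26.6, 27.0, 25.4 and 30.0 CPM in LLC1 and 58.8, 64.2, 59.0 and 54.9 CPM in MLE12. All MLE12 libraries lay above the highest LLC1 library (-1.12 ± 0.06, edgeR adjusted p = 1.2e-12). Parp1, which marks breaks with poly-ADP-ribose and takes part in that route (ENSMUSG00000026496, chr1:180568924-180601254), was at 208, 215, 231 and 213 CPM in LLC1 and 213, 214, 221 and 200.3 CPM in MLE12. Those values overlapped and were not called (0.03 ± 0.04, edgeR adjusted p = 0.518), with a 95% interval of -0.06 to 0.13 on the log2 scale.

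Fanconi anemia core complex genes were evenly divided, 3 higher in LLC1 and 3 higher in MLE12 (median 0.08), and held both the largest and the most LLC1-sided changes of all members. Fancg, an adaptor subunit that binds FANCA (ENSMUSG00000028453, chr4:43002343-43010506), was at 8.41, 9.37, 9.22 and 10.03 CPM in LLC1 and 31.2, 33.2, 32.4 and 31.7 CPM in MLE12. This is a fold of 3.46 in favour of MLE12, with the lines far apart (-1.79 ± 0.06, edgeR adjusted p = 2.4e-15, glmTreat adjusted p = 1.0e-10). Fance, which contacts FANCD2, was at 40.7, 39.3, 45.1 and 41.7 CPM in LLC1 and 24.3, 22.6, 23.3 and 21.7 CPM in MLE12, higher in every LLC1 library (0.86 ± 0.06, edgeR adjusted p = 3.8e-11). Fancl, the ubiquitin ligase subunit, was also higher in LLC1 (0.50 ± 0.08), as was the scaffold subunit Fanca (0.34 ± 0.06). Fanca shares its span with the opposite-strand model Gm20388, at 118 CPM (LLC1) and 379 CPM (MLE12), so the Fanca counts are uncertain. Fancb, on the X chromosome, was higher in MLE12 (-0.89 ± 0.08). Fancc had one of the smallest called changes (-0.19 ± 0.07, edgeR adjusted p = 0.018), and the call was lost without LLC1 replicate 1 (edgeR adjusted p = 0.0733) or MLE12 replicate 3 (0.0577). The Fancc span overlaps the opposite-strand gene 2010111I01Rik over 21388 bases, with that gene at 24.8 CPM (LLC1) and 34.0 CPM (MLE12). Whether its reads entered the Fancc count was not tested.

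The ID complex, the substrate of the core complex, divided as well. Fancd2 (ENSMUSG00000034023, chr6:113531682-113597017) was at 50.7, 51.4, 50.7 and 52.4 CPM in LLC1 and 50.6, 56.5, 53.4 and 49.6 CPM in MLE12, overlapping and not called (-0.03 ± 0.05, edgeR adjusted p = 0.511, 95% interval -0.14 to 0.07). Its partner Fanci was at 35.0, 39.1, 36.4 and 37.3 CPM in LLC1 and 60.3, 62.0, 64.8 and 61.0 CPM in MLE12, apart in every library (-0.75 ± 0.05, edgeR adjusted p = 2.7e-11). The Fanci span overlaps the opposite-strand gene Polg over 1475 bases, with Polg at 61.8 CPM (LLC1) and 104.5 CPM (MLE12). Whether Polg reads entered the Fanci count was not tested. The mismatch repair genes showed a contrast like that of Fancd2 and Fanci. Msh6, a mismatch sensor subunit, was at 146, 148, 149.7 and 146 CPM in LLC1 and 149, 149, 151 and 150.1 CPM in MLE12, with overlapping values (-0.02 ± 0.04, edgeR adjusted p = 0.598, 95% interval -0.10 to 0.06). Pms2, a mismatch repair endonuclease subunit, was at 32.5, 31.6, 29.1 and 30.5 CPM in LLC1 and 41.7, 45.8, 42.6 and 44.9 CPM in MLE12, higher in MLE12 (-0.50 ± 0.05, edgeR adjusted p = 3.8e-08).

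Proteins of these pathways act as complexes, so ratios between partner genes were computed per length within each library, where library scaling cancels. The deposited gene lengths do not cancel, so whether a ratio lies above or below 1 depends on them. The fold between the lines does not. The 14 pairs of known partners were listed with the members' fold changes known, so the ratios restate those changes and are given as a description, with no test. Library values did not overlap between the lines in any of the 14, and in 9 the partners were called in opposite directions. The same shares among gene pairs in general were not computed, so nothing particular to repair partners is read from these counts. The widest shift was Fanca over Fancg, 12.9 to 13.2 in LLC1 and 2.72 to 3.17 in MLE12, 4.41-fold apart and subject to the overlap at Fanca. Xrcc4 over Lig4 was 0.962 to 1.19 in LLC1 and 0.226 to 0.275 in MLE12, 4.28-fold apart and subject to the overlap at Xrcc4. On the deposited lengths the ligase was above its scaffold in MLE12 and near it in LLC1. Rad51c over Xrcc3, the CX3 complex, was 0.162 to 0.222 in LLC1 and 0.661 to 0.747 in MLE12 (3.57-fold), and Rad51b over Rad51c was 1.14 to 1.35 in LLC1 and 0.288 to 0.393 in MLE12 (3.52-fold). Both of these ratios contain Rad51c.

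In break sensing, Rad50 over Nbn was 2.10 to 2.17 in LLC1 and 0.985 to 1.09 in MLE12, and Mre11a over Rad50 was 1.04 to 1.14 in LLC1 and 0.568 to 0.632 in MLE12. On the deposited lengths, Rad50 and Nbn were nearer to equal in MLE12, and Mre11a and Rad50 in LLC1. Brca1 over Bard1 was 1.29 to 1.52 in LLC1 and 3.54 to 4.29 in MLE12 (2.84-fold), and Fancb over Fancl 0.449 to 0.519 in LLC1 and 1.09 to 1.44 in MLE12 (2.62-fold). The Ku ratio, Xrcc5 over Xrcc6, was 0.757 to 0.838 in LLC1 and 1.10 to 1.14 in MLE12, only 1.38-fold apart. Its place on either side of 1 rests on the deposited lengths, and it is subject to the overlap of Xrcc6 with Desi1. The smallest shifts were Prkdc over Dclre1c (1.17-fold) and Palb2 over Brca2 (1.22-fold).

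**Figure D4:**
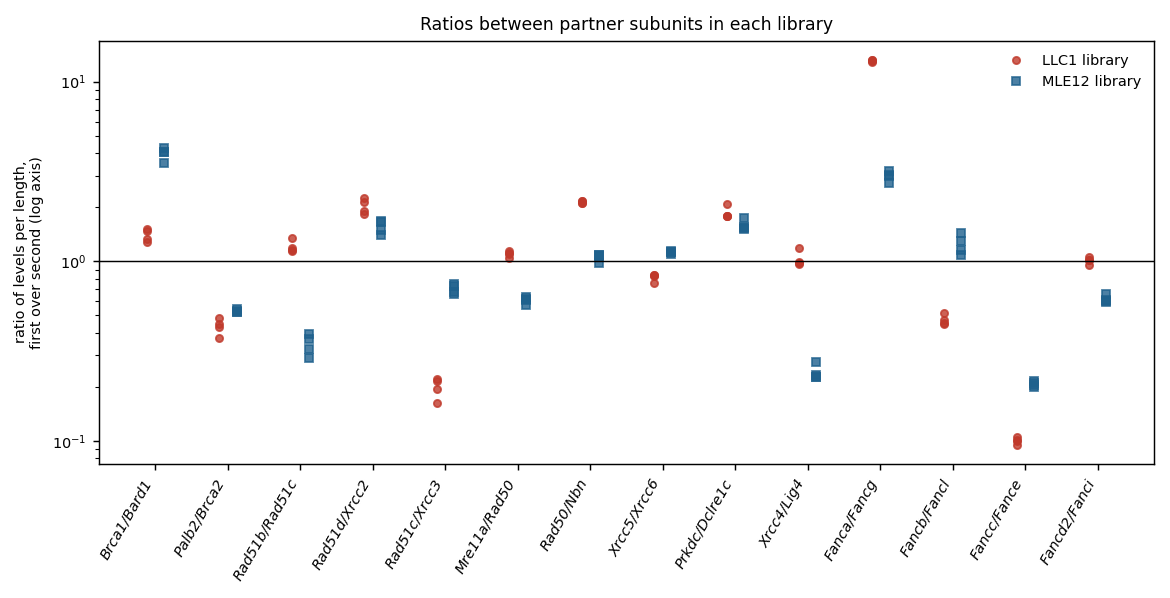
Ratio of levels per length between partner genes (log y axis, first gene over second) in each LLC1 library (red circles) and MLE12 library (blue squares), with a line at 1. The libraries of the lines separate in all 14 pairs, by 1.17-fold (Prkdc over Dclre1c) to 4.41-fold (Fanca over Fancg).

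Several repair genes start head to head with another protein-coding gene, within 1000 bases on the opposite strand in GENCODE M21. There were 13 such members. In 11 of these pairs both genes were called, and in 9 of the 11 (81.8%) they were higher in the same line, against 72.1% of 520 such pairs over the genome. Lig4 and Abhd13, whose starts lie 21 bases apart, were both higher in MLE12 (Abhd13 -1.16 ± 0.06, edgeR adjusted p = 2.9e-13). Atm and Npat, a regulator of histone genes, moved alike (Npat -0.71 ± 0.05, edgeR adjusted p = 7.9e-11), as did Brca1 and the autophagy receptor gene Nbr1 (-0.51 ± 0.04) and Fancb and Mospd2 (-0.82 ± 0.06). Prkdc and its neighbour Mcm4, a subunit of the replicative helicase, moved in opposite directions (Mcm4 -0.56 ± 0.04, edgeR adjusted p = 1.7e-10). Chek2 and Hscb did so too (Hscb 0.34 ± 0.09). Emc3, beside the uncalled Fancd2, was higher in MLE12 (-0.89 ± 0.04), and the germ cell gene Tex14, beside Rad51c, stood at 0.265 CPM (LLC1) and 0.17 CPM (MLE12), not called.

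**Figure D5:**
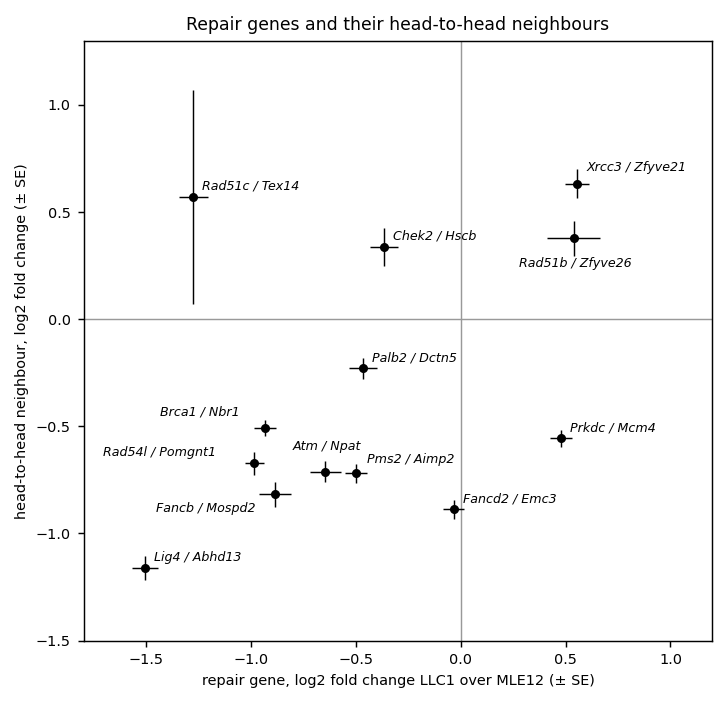
Log2 fold change (LLC1 over MLE12, ± SE) of 13 repair genes (x axis) and of the head-to-head neighbour of each (y axis). Of the 11 pairs with both genes called, 9 lie at the lower left or upper right, and Prkdc with Mcm4 and Chek2 with Hscb lie outside them.

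A wider list of 94 repair genes, of which 93 were tested, was described with the same fit. LLC1 had the higher level for 36 and MLE12 for 41, while 16 were not called. The called share was 82.8%, against 81.6% of all genes, and the median log2 fold change was -0.08. Over 2-fold were 11 (11.8%), against 33.7% of all genes. The counts by list below stand against 40.7% of all genes higher in LLC1 and 40.9% higher in MLE12. In homologous recombination, 14 of 28 were higher in MLE12 and 9 in LLC1. Among these, the helicase genes Brip1 (25.2, 25.9, 23.8 and 24.96 CPM in LLC1 and 73.4, 78.1, 79.3 and 77.9 CPM in MLE12; -1.63 ± 0.05, edgeR adjusted p = 9.0e-17) and Helq (-1.36 ± 0.06) were over 2-fold higher in MLE12, and Zswim7, a gene of homologous recombination, over 2-fold higher in LLC1 (1.94 ± 0.11). In end joining, 4 of 14 were higher in LLC1 and 7 in MLE12, with the gap-filling polymerase gene Polm (41.4, 40.6, 46.6 and 42.6 CPM in LLC1 and 17.4, 16.9, 16.8 and 15.6 CPM in MLE12; 1.36 ± 0.06, edgeR adjusted p = 4.7e-14) and the end-processing gene Aptx (1.12 ± 0.07) over 2-fold higher in LLC1. Dntt, the lymphoid polymerase gene, passed toward MLE12 at 0.00517 CPM (LLC1) and 0.303 CPM (MLE12), and is named although under the 5 CPM set for naming. In signalling, 14 of 27 were higher in LLC1 and 9 in MLE12. Over 2-fold there were Mad2l2, a shieldin and polymerase zeta subunit (-1.33 ± 0.05), and Clspn, the ATR adaptor (-1.23 ± 0.05), both higher in MLE12. In the Fanconi and crosslink list, 7 of 19 were higher in LLC1 and 10 in MLE12, and Fancf, which joins FANCC and FANCE in the core complex, was over 2-fold higher in LLC1 (1.36 ± 0.07, edgeR adjusted p = 2.0e-12).

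Cell cycle genes were described in the same way, as a measure beside the repair genes. Of 25 S phase genes, 17 were higher in MLE12 and 4 higher in LLC1, against 40.9% and 40.7% of all genes, with a median log2 fold change of -0.56. Among the repair roles the medians ran from -0.72 for resection and -0.47 for strand exchange to 0.08 for the Fanconi anemia core complex and 0.27 for non-homologous end joining, with -0.20 over all members. The summed level of the S phase genes was 2849.5 to 3098 CPM in LLC1 and 3629.9 to 3705 CPM in MLE12. The extremes were Gins2, a subunit of the replicative helicase (-1.73 ± 0.05), and Mcm3, another (0.50 ± 0.04). Of 20 G2 and M phase genes, 9 were higher in MLE12, 8 in LLC1 and 3 not called (median -0.08), between the kinase gene Ttk (-1.37 ± 0.05) and the ubiquitin conjugating enzyme gene Ube2c (0.46 ± 0.05). The part of cell cycle phase in the repair gene differences was not tested.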

How the data were processed

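The labels' protocols describe poly-A selection, random priming and paired-end sequencing, and name no step that marks the strand. The authors deposited raw counts per gene, made with CASAVA, TopHat2 and featureCounts on mm10 per the submitters' processing notes, which also name edgeR. No version, strand setting or annotation release is named there. RPKM values were computed here from the deposited gene length.

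Counts of all 43346 genes were fitted with edgeR 4.0.16 (R 4.3.3): filterByExpr, TMM scaling, glmQLFit with robust estimation, glmQLFTest, and glmTreat against 2-fold, with Benjamini-Hochberg adjustment over 18546 genes, called under 0.05. The SE is the size of the log2 fold change divided by the square root of F. The fit was tested on simulated data. Groups are the labelled cell lines. Whether the 4 libraries of each line are separate cultures is not stated, so the p-values reflect only how far these libraries spread, which may be technical. No library copied another (chi-square per degree of freedom 6.9 to 60.1 within a line). Members and lists were chosen with earlier results of these data known. All 39 members are accounted for; those over 2-fold, and Brca1, Brca2, Rad51c, Prkdc, Xrcc5, Xrcc6, Atm, Fancd2, Polq and Parp1, were to be given in full, and other genes with values in every library were added after their values were seen. From the wider lists, genes over 2-fold with at least 5 CPM in the higher line are named, up to 2 per direction, and the extreme gene per direction of each cell cycle list. Of the members, 22 overlap another gene of the table, 15 of them a gene of at least 1 CPM, and without a known strand setting such reads cannot be told apart. Alternatives were DESeq2 1.42.0, library totals without scaling factors, upper-quartile scaling, no filter, at least 1 CPM in 4 libraries, each library left out, and a replicate block.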

Additional observations from a re-analysis of the deposited data

Results flagged for a closer look

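Of 78 sets of 4 libraries (39 members in each line), 2 held a library far from the other 3, where chance alone gives about 1 in 20. Brca1 stood at 71.05 CPM in LLC1 replicate 1, below the 76.9 to 77.4 CPM of the other LLC1 libraries. Blm stood at 32.04 CPM in LLC1 replicate 3, below the 35.1 to 35.3 CPM of the others. Both values were still below every MLE12 library of the same gene.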

How the results depend on the processing

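Over all alternatives, 12 to 13 members were called higher in LLC1 and 22 to 25 higher in MLE12, and 0 were over 2-fold higher in LLC1 and 5 to 7 higher in MLE12. Among all genes the over 2-fold counts were 2375 to 3807 toward LLC1 and 2466 to 3897 toward MLE12, and the wider repair list gave 3 to 5 and 6 to 7. None of these counts moved by over 1.5 times, and no called member changed direction. The members whose 2-fold call changed were Polq, lost with DESeq2 (adjusted p = 0.152), upper-quartile factors (0.152) and the stricter filter (0.134), and Blm, gained with library totals alone (glmTreat adjusted p = 0.00157) and without a filter (0.0185). With library totals alone Fancd2 (-0.13, edgeR adjusted p = 0.0331) and Msh6 (-0.12, 0.0206) were called higher in MLE12, and Fancc was not called with upper-quartile factors (0.085) or the stricter filter (0.0651). The uncalled Parp1, Fancd2 and Msh6 changed sign under some settings. Same-numbered libraries of the lines correlated in their deviations at -0.0646 to 0.108, and 4 of 8 libraries correlated best with their own number. These values do not settle whether the numbers pair the libraries. With the replicate block, 13 members were higher in LLC1 and 23 in MLE12, 6 of these over 2-fold, and of all genes 7380 and 7415 were called. The wider repair list gave 35 and 41 calls, and 3 and 7 over 2-fold. The partner ratios, an alternative chosen after seeing the data, kept their direction in all 112 values with 1 library left out. That outcome was fixed in advance, because the library values of the lines did not overlap in any pair. It says nothing on how stable the ratios are. The lowest count of a member in a library was 166.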
